A study of Mus musculus with 56 samples.

Results

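Ribosome footprints of mouse kidney labelled 20 months were set against those labelled 3 months, to see which genes differed in ribosome-bound reads. Footprints are the short pieces of messenger RNA that ribosomes shield from nuclease, so a gene's footprint count reflects both how much of its transcript is present and how many ribosomes sit on it. The libraries were chosen by their tissue, assay and age labels: 3 libraries labelled 20 months and 4 labelled 3 months, 7 of the 28 footprint libraries and of the 56 libraries of the series. All came from C57BL/6 mice with no further treatment, genotype or allele given; the labels give no sex and no hour of collection. Frozen tissue was lysed and digested with RNase T1 and RNase S7. The series text gives 3 animals at each of these ages, while 4 libraries are labelled 3 months, so libraries are the unit of n and may share an animal. Kidney footprints labelled 32 months (3 libraries, with 2 animals described at that age) shared the estimate of spread and serve as a further age. Matched total RNA was not used here, so a change in transcript amount and a change in ribosomes per transcript cannot be told apart. In bulk tissue, fewer cells of a type and less RNA per cell cannot be told apart either.

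The kidney is built mostly of tubules. Proximal tubule cells reabsorb most of the filtrate and make glucose, the thick ascending limb and distal convoluted tubule recover salt, and the collecting duct holds principal cells for water and intercalated cells for acid and base. Kidney cells also carry a strong circadian clock, in which CLOCK or NPAS2 pairs with BMAL1 (gene Arntl) to switch on Per and Cry genes, whose proteins then block that pair. Adrenal glucocorticoids act on the same cells and switch on a set of genes through the glucocorticoid receptor, several clock genes among them.

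The libraries were checked before the comparison. Kidney footprint totals ran from 10388818 to 30517983 counts. Slc34a1, the phosphate transporter of the proximal tubule, ran from 7326 to 7492 CPM (counts of the gene per 1000000 counts of the library) in libraries labelled 20 months and from 7017 to 8323 CPM in libraries 1, 3 and 4 labelled 3 months. The collecting duct water channel gene Aqp2 was also present in every one of these. Library 2 labelled 3 months stood apart. Its median correlation with the other kidney footprint libraries was 0.888, against 0.973 to 0.988 for the others, and the 10 most abundant genes took 20.1% of its counts, against 10.6% to 11.6%. Slc34a1 was at 3470 CPM in it. It was left out of the main comparison, which therefore sets 3 libraries against 3, and results with it are given beside the main groups. Library 4 labelled 3 months stood apart in another way. The 8 adrenal marker genes summed to 291.6 CPM in it, with the steroid enzymes Cyp21a1, Hsd3b1 and Cyp11b1 among them, against 0.562 to 0.674 CPM in the libraries labelled 20 months and 0.754 and 0.888 CPM in libraries 1 and 3 labelled 3 months. Results without library 4 are given too. The age labels themselves are in doubt for parts of the series. In liver footprints H19, a transcript that is abundant before and soon after birth, ran from 9.83 to 22.2 CPM in libraries labelled 11 months and from 0 to 0.414 CPM in those labelled 1 month. All directions below are those of the libraries as labelled.

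At an adjusted p under 0.05 (edgeR's quasi-likelihood test with Benjamini-Hochberg adjustment over all 14463 genes tested), 255 genes differed, which is 1.76% of the genes tested. Of these, 91 rose (0.629%) and 164 fell (1.13%) in the libraries labelled 20 months. The median log2 difference was 0.62 among genes that rose and −0.80 among genes that fell, against 0.01 over all tested genes, and 77 genes differed by 1 or more on the log2 scale (21 higher, 56 lower). In all 255 the ranges of the 3 libraries labelled 20 months and the 3 labelled 3 months did not overlap, as was also so for 26.6% of all tested genes. Lists with 3 or more called members were the clock, glucocorticoid-responsive, tubular injury and endoplasmic reticulum chaperone genes, where most calls were falls, and the intercalated cell genes, where all were rises.

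The count leaned on single libraries. Without library 1 labelled 20 months, the deepest of its group, 5 genes were called. Without library 2 or 3 labelled 20 months the counts were 90 and 60. Without library 3 or 4 labelled 3 months they were 81 and 165, and without library 1 labelled 3 months 238. With library 2 labelled 3 months added, edgeR called 0 of 14621 genes (1981 at an unadjusted p under 0.05, smallest adjusted p 0.128). DESeq2 called 385 of them (99 higher, 286 lower). Without that library DESeq2 called 802 of 14463 genes (268 higher, 534 lower). Its counts within lists below stand against these larger counts over all genes. Of the 255 genes, 54 were called in 0 of the 6 fits with a library left out, 95 in 1 and 5 in all 6. All 255 genes kept the sign of their difference with library 2 added, and all 255 kept it without library 4, where 108 of them were still called. The genes called whichever of the 6 libraries was left out were Per2, Zbtb16, Tmem86a, Sfpq and Tra2a. The last pair, both splicing factors, was picked out here after its values were seen: the log2 difference of Sfpq was −0.88 ± 0.10 (SE) and that of Tra2a −0.99 ± 0.15, with edgeR adjusted p of 0.00458 and 0.0114.

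**Figure D1:**
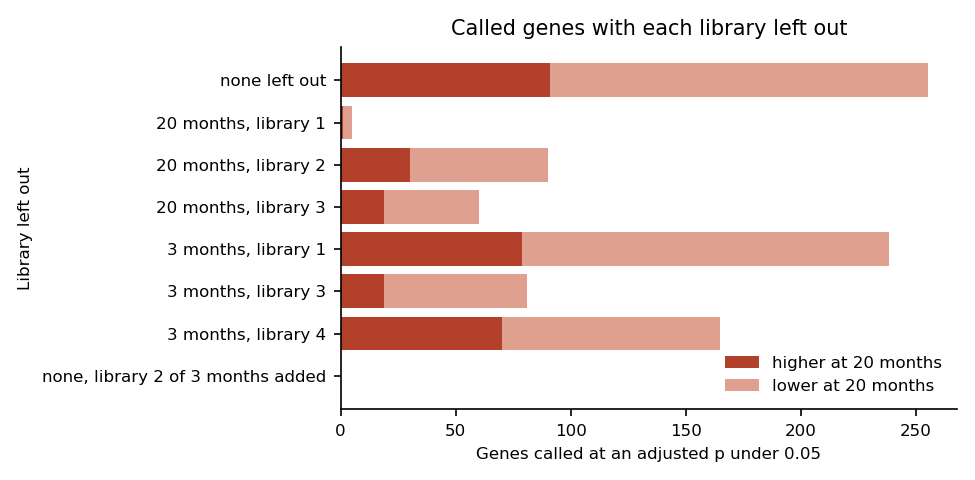
Number of genes called at an adjusted p under 0.05 (x axis) in libraries labelled 20 against 3 months, with each library left out in turn (rows); dark bars are genes higher and light bars genes lower at 20 months. The main comparison called 255 genes, 5 remained called without library 1 labelled 20 months, and edgeR called none once library 2 labelled 3 months was added.

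Several clock genes fell, the Per and Cry repressors among them. Of 23 clock genes tested, 6 fell, among them Per2, Cry1, Per3, Bhlhe40 and Usp2, and 1 rose (Npas2), against 1.76% called over all genes. The list's median log2 difference was −0.51, against 0.01 over all tested genes, and 13 members had lower ranges that did not overlap, against 12.5% of all tested genes. Without library 4 labelled 3 months 5 fell and 1 rose, with library 2 added edgeR called 0 and DESeq2 called 7 lower, with a median of −0.46 in both fits, and without library 1 labelled 20 months Per2 alone was called. Npas2 lost its call when any of the 6 libraries but library 4 labelled 3 months was left out.

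Per2, a repressor of the clock, was at 19, 33.1 and 28.2 CPM in libraries 1 to 3 labelled 20 months, against 81.5, 85.1 and 85.9 CPM in libraries 1, 3 and 4 labelled 3 months. Every library labelled 20 months lay far below every library labelled 3 months, and library 2 labelled 3 months lay higher still at 134 CPM. The log2 difference was −1.67 ± 0.20 (SE, edgeR adjusted p 0.0114). Cry1, the partner of the PER proteins in repression, was at 5.33, 5.22 and 4.14 CPM at 20 months, against 13.4, 18.1 and 19.1 CPM at 3 months. These values did not overlap, and the log2 difference was −1.77 ± 0.23 (edgeR adjusted p 0.0114). Per3, another period gene, was at 36.7, 39.7 and 39.6 CPM at 20 months, against 60.0, 61.8 and 49.4 CPM at 3 months; its log2 difference was smaller, −0.57 ± 0.09 (edgeR adjusted p 0.0175).

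Bhlhe40, a repressor that competes for the same promoter element, was at 97.9, 113 and 95.9 CPM at 20 months, against 182, 213 and 206 CPM at 3 months (log2 difference −0.98 ± 0.14, edgeR adjusted p 0.0114). Library 2 labelled 3 months, at 117 CPM, lay next to the 20-month values for this gene. Usp2, a deubiquitinase whose level cycles with the clock, averaged 223 ± 47.1 CPM at 20 months and 343 ± 22.0 CPM at 3 months (SD, n = 3 each; edgeR adjusted p 0.0417). Per1, a period gene that glucocorticoids also induce, was at 38.8, 62.1 and 31.9 CPM at 20 months, against 109, 93.9 and 88.4 CPM at 3 months. Its ranges did not overlap, but it missed the threshold (log2 difference −1.15 ± 0.25, edgeR adjusted p 0.0638).

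Npas2, which encodes an activator that pairs with BMAL1, was at 7.17, 5.30 and 4.72 CPM at 20 months, against 1.77, 2.07 and 3.08 CPM at 3 months, and rose by a log2 difference of 1.34 ± 0.29 (edgeR adjusted p 0.039). Library 2 labelled 3 months held 11.2 CPM of it, more than any library labelled 20 months, and the difference was 0.36 with that library. Arntl itself was at 3.58, 2.57 and 3.37 CPM at 20 months, against 1.54, 2.96 and 3.80 CPM at 3 months, with overlapping ranges. Nr1d1, which encodes the REV-ERB alpha repressor of Arntl, had a log2 difference of 0.52 ± 0.13 that missed the threshold (edgeR adjusted p 0.0657). Dbp, a classical output of the clock, overlapped between the ages with a log2 difference of −0.09 ± 0.23, and Nfil3, the repressor that opposes it at D-boxes, had one of −1.57 ± 0.41 (edgeR adjusted p 0.0874).

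The start regions of the 4 called clock genes that the RefSeq promoter table holds are shown because BMAL1 complexes bind E-boxes (CACGTG, and here also the variant CACGTT), and DBP and NFIL3 bind D-boxes (TTATGTAA or TTACGTAA). Each window runs from 250 bases before the annotated start to 50 bases after it, build GRCm38.p6, 5′ to 3′ on the gene's strand. Capitals mark a match to these motifs on either strand. AGGTCA, the core of the REV-ERB element, was also searched on either strand but not put in capitals. None of the 4 windows held it.
Cry1 (chr10:85185005-85185304, minus strand): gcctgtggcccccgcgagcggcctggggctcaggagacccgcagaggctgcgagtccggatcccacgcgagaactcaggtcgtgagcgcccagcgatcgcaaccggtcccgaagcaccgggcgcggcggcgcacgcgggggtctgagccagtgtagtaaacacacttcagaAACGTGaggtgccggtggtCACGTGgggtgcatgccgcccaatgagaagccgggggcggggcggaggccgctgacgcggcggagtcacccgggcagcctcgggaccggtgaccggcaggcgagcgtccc
Per3 (chr4:151044616-151044915, minus strand): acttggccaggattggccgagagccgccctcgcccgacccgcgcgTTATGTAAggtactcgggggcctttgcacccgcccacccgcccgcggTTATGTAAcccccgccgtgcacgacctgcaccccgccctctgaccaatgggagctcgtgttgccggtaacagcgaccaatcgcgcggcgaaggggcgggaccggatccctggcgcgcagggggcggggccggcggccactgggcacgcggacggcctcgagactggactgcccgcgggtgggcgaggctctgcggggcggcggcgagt
Usp2 (chr9:44084670-44084969, plus strand): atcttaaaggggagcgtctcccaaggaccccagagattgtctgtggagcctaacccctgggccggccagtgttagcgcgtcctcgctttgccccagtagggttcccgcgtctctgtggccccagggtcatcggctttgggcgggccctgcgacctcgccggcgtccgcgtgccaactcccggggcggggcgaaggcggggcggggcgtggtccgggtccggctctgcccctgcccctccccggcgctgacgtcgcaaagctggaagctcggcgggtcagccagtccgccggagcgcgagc
Npas2 (chr1:39194022-39194321, plus strand): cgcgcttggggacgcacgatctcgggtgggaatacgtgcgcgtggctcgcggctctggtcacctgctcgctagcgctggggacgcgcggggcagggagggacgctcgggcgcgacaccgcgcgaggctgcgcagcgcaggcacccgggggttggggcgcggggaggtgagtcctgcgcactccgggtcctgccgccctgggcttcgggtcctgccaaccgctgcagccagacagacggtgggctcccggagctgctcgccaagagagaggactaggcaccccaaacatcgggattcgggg
Cry1 held 1 CACGTG and 1 CACGTT, Per3 held 2 copies of TTATGTAA, and the windows of Usp2 and Npas2 held none of these letters. Among the 18 clock genes with a window, 5 held CACGTG, 3 held CACGTT, 1 held TTATGTAA and 5 held AGGTCA. A gene was counted if any of its windows held the motif, and some genes have several windows. The shares that follow are per window, so the gene counts are not on the same unit. Over all 32851 windows the shares were 7.15% for CACGTG, 4.68% for CACGTT, 0.938% for TTATGTAA, 0.119% for TTACGTAA and 16.3% for AGGTCA. The motifs matched here did not overlap each other in the windows shown, and a match describes the letters only.

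Several glucocorticoid-responsive genes fell as well. Of 12 tested, 4 fell (Zbtb16, Tsc22d3, Fkbp5 and Errfi1), 0 rose and all 12 had a negative log2 difference, with a median of −0.78; over all genes 1.13% fell. Without library 4 labelled 3 months, the one with adrenal markers, 3 were called (Zbtb16, Tsc22d3 and Fkbp5) and the median was −0.60. With library 2 added edgeR called 0 and DESeq2 called 6 lower, and the median was −1.03 in both fits. Without library 1 labelled 20 months Zbtb16 alone was called, and without library 2 or library 3 labelled 20 months 2 were.

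Zbtb16, a zinc finger transcription factor induced by glucocorticoids, had the smallest adjusted p of all genes. It was at 6.07, 7.54 and 5.29 CPM at 20 months, against 38.6, 43.4 and 47.0 CPM at 3 months, and 137 CPM in library 2 labelled 3 months. The 20-month values were tightly grouped and far below all the others, with a log2 difference of −2.78 ± 0.17 (SE, edgeR adjusted p 1.09e-05). Without library 4 the difference was −2.69. Tsc22d3, which encodes the anti-inflammatory leucine zipper protein GILZ, was at 75.4, 87.3 and 59.6 CPM at 20 months, against 145, 182 and 227 CPM at 3 months (log2 difference −1.33 ± 0.19, edgeR adjusted p 0.0175). Fkbp5, a co-chaperone that dampens the receptor, was at 85.5, 88.4 and 102 CPM at 20 months, against 151, 139 and 165 CPM at 3 months (log2 difference −0.73 ± 0.13, edgeR adjusted p 0.0212). Neither gene's ranges overlapped. Errfi1, a feedback inhibitor of the EGF receptor, averaged 569 ± 45.4 CPM at 20 months and 872 ± 125 CPM at 3 months, but library 2 labelled 3 months, at 502 CPM, lay below all libraries labelled 20 months. Dusp1, a MAP kinase phosphatase that both stress and glucocorticoids induce, was the 1 called member of the 22 immediate early genes tested: it averaged 50.9 ± 7.51 CPM at 20 months and 81.1 ± 2.83 CPM at 3 months (SD, n = 3 each; edgeR adjusted p 0.0332).

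**Figure D2:**
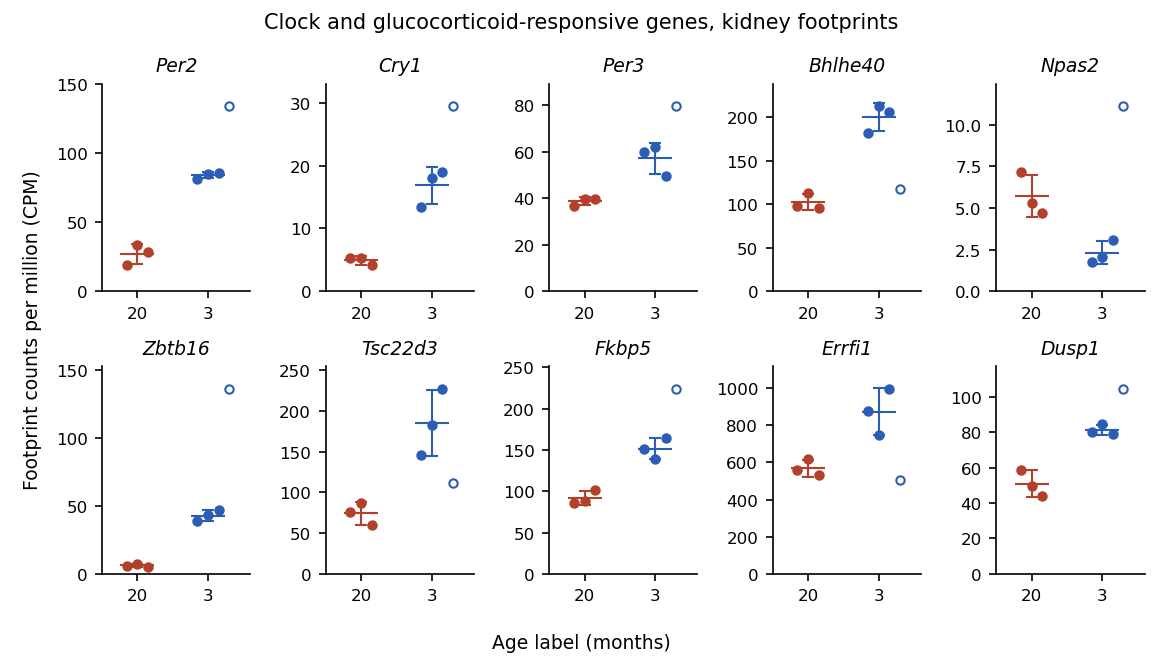
Footprint CPM (y axis, linear, from 0) of 5 clock genes (upper row) and 5 glucocorticoid-responsive or immediate early genes (lower row) by age label (x axis); filled points are single libraries, bars the mean and SD of 3 libraries, and the open point library 2 labelled 3 months, which is in neither. Per2 and Zbtb16 lay lower in every library labelled 20 months, Npas2 lay higher at 20 months only when library 2 is left aside, and for Errfi1 that library lay below the 20-month points.

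Several genes that mark injured tubule fell. Of 18 tested, 5 fell (Havcr1, Vcam1, Cd44, Sox9 and Ccl2), against 1.13% of all genes, 0 rose, and the median log2 difference was −0.40. Havcr1, the kidney injury molecule KIM-1, was at 2.24, 2.17 and 1.73 CPM at 20 months, against 9.21, 5.40 and 10.3 CPM at 3 months (log2 difference −2.03 ± 0.42, edgeR adjusted p 0.0442). Vcam1, an adhesion molecule of failed tubular repair, was at 13.6, 13.4 and 10.2 CPM at 20 months, against 32.4, 42.6 and 28.1 CPM at 3 months (log2 difference −1.46 ± 0.26, edgeR adjusted p 0.0344). Neither gene's ranges overlapped among these 6 libraries, but library 2 labelled 3 months had 0.875 CPM of Havcr1, 7.27 CPM of Vcam1 and 4.10 CPM of Cd44, below every library labelled 20 months. Sox9, a transcription factor of regenerating tubule, averaged 1.07 ± 0.19 CPM at 20 months and 3.79 ± 0.58 CPM at 3 months, with 3.44 CPM in library 2 (log2 difference −1.86 ± 0.36, edgeR adjusted p 0.0302). Cd44, a hyaluronan receptor, had a log2 difference of −1.12 ± 0.21 and the monocyte attractant Ccl2 one of −2.97 ± 0.56, both with an edgeR adjusted p of 0.0256. Ccl2 stood at 0.0963 to 0.249 CPM at 20 months. With library 2 added edgeR called 0 of the list and DESeq2 called 3 lower (Ccl2, Lcn2 and Sox9), and the median was −0.59 in both fits. Without library 4 labelled 3 months 3 were called (Ccl2, Cd44 and Vcam1), without library 1 labelled 3 months 3 (Ccl2, Cd44 and Sox9), without library 3 labelled 3 months 1 (Havcr1), and without any one library labelled 20 months 0.

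Most immune markers had negative differences, and few passed the test. Of 17 B and plasma cell markers tested, 0 passed the edgeR test, but all 17 had a negative log2 difference, with a median of −2.37. Only 17 of the 20 markers were tested, and those low at 20 months could pass the count filter only through other libraries. The filter may thus have set part of these signs, which are given as description only. The 20 markers summed to 25.1, 41.7 and 76.0 CPM at 20 months, against 594, 2811 and 227 CPM in libraries 1, 3 and 4 at 3 months and 730 CPM in library 2. Ighm, the heavy chain of IgM, was at 8.56, 22.0 and 35.8 CPM at 20 months, against 278, 1501 and 88.2 CPM at 3 months, which did not overlap, yet the wide spread at 3 months left the edgeR adjusted p at 0.158. Over all genes DESeq2 called 534 of 14463 lower, and 286 of 14621 with library 2. Of the 17 markers it called 8 lower, with or without library 2. The median was −2.18 with library 2 added and −0.91 without library 3 labelled 3 months. Igkc, the kappa light chain, Igha, the IgA heavy chain, and Jchain, which joins secreted IgA and IgM, had log2 differences of −5.49 ± 1.59, −4.80 ± 1.17 and −4.22 ± 1.31. Variable segments of antibody genes summed to 3.39, 9.47 and 16.9 CPM at 20 months, against 134, 574 and 50.4 CPM at 3 months. Of 348 segments 33 were tested, with 32 negative and 3 called lower, against 1.13% of all genes. At such low 20-month sums few segments could pass the count filter through those libraries. The filter thus largely set their signs, which add no support. Antibody transcripts are known to accumulate in ageing mouse tissues. Here the B and plasma cell sums were lower in the libraries labelled 20 months than in those labelled 3 months, and at 32 months they were 44.8, 607 and 289 CPM.

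Of 23 macrophage markers tested, 1 fell (Gpnmb) and 22 had negative differences, with a median of −0.87; their summed level ran from 283 to 350 CPM at 20 months and from 384 to 627 CPM at 3 months. Gpnmb, a glycoprotein of lipid-laden macrophages, was at 0.697, 0.481 and 0.193 CPM at 20 months, against 2.42, 4.81 and 2.15 CPM at 3 months (log2 difference −2.63 ± 0.52, edgeR adjusted p 0.0331). Lysozyme (Lyz2) averaged 25.4 ± 2.41 CPM at 20 months and 59.5 ± 24.5 CPM at 3 months (SD, n = 3 each), and C1qb, a chain of complement C1q made by resident macrophages, had a log2 difference of −0.91 ± 0.22; both missed the threshold (edgeR adjusted p 0.102 and 0.0638). None of the 11 T and NK cell markers, 20 antigen presentation genes, 18 complement genes or 35 interferon genes tested was called by edgeR, and their medians were −1.12, −0.55, −0.66 and −0.35. Only 11 of 18 T and NK cell markers passed the count filter, which may have set part of their signs too. Over all 14463 genes DESeq2 called 534 lower and 268 higher. It called 12 of the macrophage markers and 1 of the T and NK cell markers lower. Of the antigen presentation genes it called 7 lower, of the complement genes 9 lower and of the interferon genes 1 higher. With library 2 added DESeq2 called 286 of 14621 genes lower and 99 higher. In that fit it called 6 macrophage, 0 T and NK cell, 1 antigen presentation and 4 complement genes lower. Of the interferon genes it then called 1 lower and 0 higher. With library 2 added edgeR called 0 in any of these 5 lists, and the medians were −0.80 for macrophage, −1.07 for T and NK cell, −0.47 for antigen presentation, −0.62 for complement and −0.61 for interferon genes. Without library 3 labelled 3 months they were −0.65, −1.04, −0.22, −0.51 and −0.06 in the same order. Ifi207, an interferon-inducible gene on none of these lists and among the 15 largest falls, averaged 0.778 ± 0.38 CPM at 20 months and 2.90 ± 1.18 CPM at 3 months (edgeR adjusted p 0.0417). No marker of these immune lists with deposited counts, tested or not, was at 0 in all 6 libraries. Their part in the fall of the injury genes was not tested.

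Some protein-folding genes fell. Of 21 endoplasmic reticulum chaperone genes tested, 4 fell (Herpud1, Manf, Xbp1 and Creld2), against 1.13% of all genes, and 0 rose, while 14 had positive differences and the median was 0.18. Herpud1, a part of the machinery that removes misfolded proteins, was at 285, 379 and 294 CPM at 20 months, against 565, 519 and 593 CPM at 3 months (log2 difference −0.82 ± 0.13, edgeR adjusted p 0.0174). The secreted stress protein Manf, the transcription factor Xbp1 and the chaperone Creld2 fell by 0.71, 0.40 and 0.61 on the log2 scale. Ddit3, which encodes the stress factor CHOP and was the 1 called member of 17 integrated stress response genes tested, was at 3.68, 3.29 and 3.46 CPM at 20 months, against 6.88, 7.77 and 7.75 CPM at 3 months. The 2 groups were each tight and well apart (log2 difference −1.10 ± 0.17, edgeR adjusted p 0.013). Among 16 heat shock genes 2 fell, Hspa8 and Hspb8. Hspa8, the constitutive HSP70, was at 550, 599 and 634 CPM at 20 months, against 1255, 868 and 1250 CPM at 3 months (log2 difference −0.93 ± 0.15, edgeR adjusted p 0.0157). With library 2 added edgeR called 0 genes of these 3 lists and DESeq2 called 4 lower (Creld2, Herpud1, Ddit3 and Hspa8), and the median of the chaperone list was 0.17. Of the chaperone genes Herpud1 alone was called without library 2 labelled 20 months or without library 1 or 4 labelled 3 months, and 0 were without library 1 or 3 labelled 20 months.

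**Figure D3:**
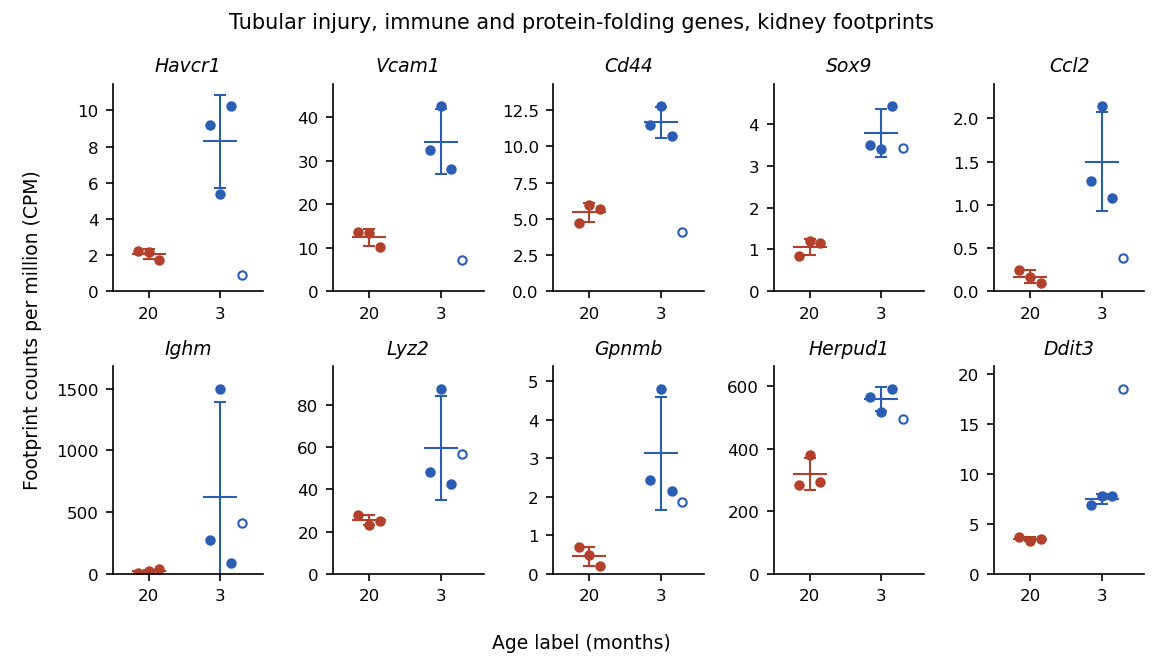
Footprint CPM (y axis, linear, from 0) of tubular injury genes (upper row) and of immune and protein-folding genes (lower row) by age label (x axis); filled points are single libraries, bars the mean and SD of 3 libraries, and the open point library 2 labelled 3 months. Ighm and Lyz2 varied widely among the 3-month libraries, up to 1501 CPM for Ighm, where the axis cuts the SD bar at 0, while Ddit3 lay at 3.29 to 3.68 CPM at 20 months and at 6.88 to 7.77 CPM at 3 months, with library 2 at 18.5 CPM.

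A few members of other lists fell. Pck1, the gene of the enzyme that starts glucose synthesis, was the 1 called member of 24 proximal tubule genes tested: it was at 1953, 1345 and 1567 CPM at 20 months, against 2904, 2380 and 3193 CPM at 3 months (log2 difference −0.82 ± 0.16, edgeR adjusted p 0.0305), with 1340 CPM in library 2. The other 23 did not pass in edgeR, and the list's median was −0.07, with 11 members positive. With library 2 added the median was 0.16, 19 members were positive and edgeR called 0. DESeq2 called 2 of the list higher and 3 lower without library 2, and 0 with it. The gene of the vessel-constricting peptide endothelin 1 (Edn1) fell by 1.35 on the log2 scale, that of cyclin D1 (Ccnd1) by 0.76, that of the growth factor binding protein Igfbp4 by 0.51 and that of diamine oxidase (Aoc1) by 1.18. The lists they stand for (blood pressure, cell cycle, senescence and androgen-regulated kidney genes) held 17, 29, 14 and 14 tested members, so most members did not pass. Summed levels of the androgen-regulated list were 29140 to 35440 CPM at 20 months, against 14910 to 28200 CPM in the main 3-month libraries. Library 2 labelled 3 months lay far below all of these, at 2427 CPM. In this list 13 of 14 members had positive differences, with a median of 0.40. Aoc1 was the exception, and it alone was called. Without library 3 labelled 3 months 10 were positive and 4 negative with a median of 0.15, and without library 3 labelled 20 months 11 were positive with a median of 0.22. With library 2 added the median was 0.70 and edgeR called 0. Pck1, Edn1, Ccnd1 and Igfbp4 each stayed called in 1 of the 6 fits with a library left out, and Aoc1 in 0.

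Several genes of the acid- and base-handling cells of the collecting duct rose. Of 10 intercalated cell genes tested, 3 rose (Foxi1, Slc4a1 and Atp6v1g3), against 0.629% of all genes, and 0 fell, all 10 had positive differences, and 9 had higher ranges that did not overlap, against 14.1% of all tested genes. The median log2 difference was 0.64, and 0.67 with library 2 added, when edgeR called 0. DESeq2 with that library called 3 higher (Atp6v0d2, Foxi1 and Slc4a1). Their summed level was 451, 524 and 434 CPM at 20 months, against 381, 314 and 291 CPM at 3 months and 395 CPM in library 2. Without library 4 labelled 3 months Atp6v1g3 alone was called, without library 2 labelled 20 months Slc4a1 alone, and without library 3 labelled 3 months or library 1 labelled 20 months 0 were.

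Foxi1, the transcription factor that specifies these cells, was at 32.0, 30.2 and 22.7 CPM at 20 months, against 16.6, 22.2 and 17.5 CPM at 3 months (log2 difference 0.60 ± 0.13, edgeR adjusted p 0.0405). The lowest value at 20 months barely exceeded the highest at 3 months. Slc4a1, the anion exchanger through which they return bicarbonate to blood, was at 83.1, 124 and 78.0 CPM at 20 months, against 59.0, 61.0 and 52.9 CPM at 3 months (log2 difference 0.71 ± 0.14, edgeR adjusted p 0.0369). Red cells also carry Slc4a1. Of 6 erythroid genes tested edgeR and DESeq2 called 0, with a median of −0.03, and their part in the Slc4a1 difference was not tested. Atp6v1g3, a proton pump subunit, averaged 8.35 ± 0.35 CPM at 20 months and 4.36 ± 0.43 CPM at 3 months (SD, n = 3 each), although library 2 labelled 3 months reached 8.03 CPM. Rhbg, an ammonia transporter of the collecting duct, was at 9.91, 12.7 and 13.0 CPM at 20 months, against 6.42, 5.40 and 4.45 CPM at 3 months (log2 difference 1.09 ± 0.19, edgeR adjusted p 0.0197). Of 8 distal convoluted tubule genes 1 rose, the calcium binder Calb1, at 212, 310 and 231 CPM at 20 months, against 154, 140 and 162 CPM at 3 months. In the principal cell, thick ascending limb, podocyte and endothelial lists edgeR called 0 genes, with medians from −0.18 to 0.14; DESeq2 called Scnn1g higher and Cdkn1c and Flt1 lower.

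The other genes that rose most came from several roles. Serpina3c, a serine protease inhibitor, was at 3.93, 2.73 and 2.02 CPM at 20 months, against 0.295, 0.370 and 0.789 CPM at 3 months. It was low in all libraries labelled 3 months, library 2 included (0.820 CPM), with a log2 difference of 2.66 ± 0.40 (edgeR adjusted p 0.0114). Retnla, a resistin-like secreted protein, and B3galt2, a galactosyltransferase, had log2 differences of 1.83 ± 0.32 and 1.81 ± 0.34. Tmem86a, an enzyme of plasmalogen breakdown, was at 69.8, 56.3 and 65.3 CPM at 20 months, against 34.3, 29.1 and 28.6 CPM at 3 months and 18.9 CPM in library 2. The gap exceeded the spread of either group, and the log2 difference was 1.04 ± 0.12 (edgeR adjusted p 0.00765). Bcat1, which starts the breakdown of branched-chain amino acids in the cytosol, was at 108, 81.9 and 94.4 CPM at 20 months, against 29.0, 48.5 and 32.6 CPM at 3 months. The cadherin gene Cdh4, the BMP antagonist gene Chrdl1, the membrane-type metalloproteinase gene Mmp15 and Stra6l, a relative of the retinol transporter Stra6, rose by log2 differences of 1.34, 1.22, 1.05 and 1.22. Also among the 15 highest were Tmem169, Frmpd3, Rapgefl1 and Rsrp1, with log2 differences of 1.09 to 1.56. Gclc, which makes the first step of glutathione synthesis, was the 1 called gene of 23 in its list, at 314, 341 and 347 CPM at 20 months, against 204, 190 and 234 CPM at 3 months (log2 difference 0.66 ± 0.14, edgeR adjusted p 0.039). With a library left out in turn, Tmem86a stayed called in all 6 fits and Serpina3c, Stra6l and Tmem169 in 5. Retnla, B3galt2 and Frmpd3 stayed called in 3 of them, and Cdh4, Chrdl1 and Rsrp1 in 2. Mmp15, Rapgefl1 and Gclc did so in 1, and Bcat1 in 0.

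**Figure D4:**
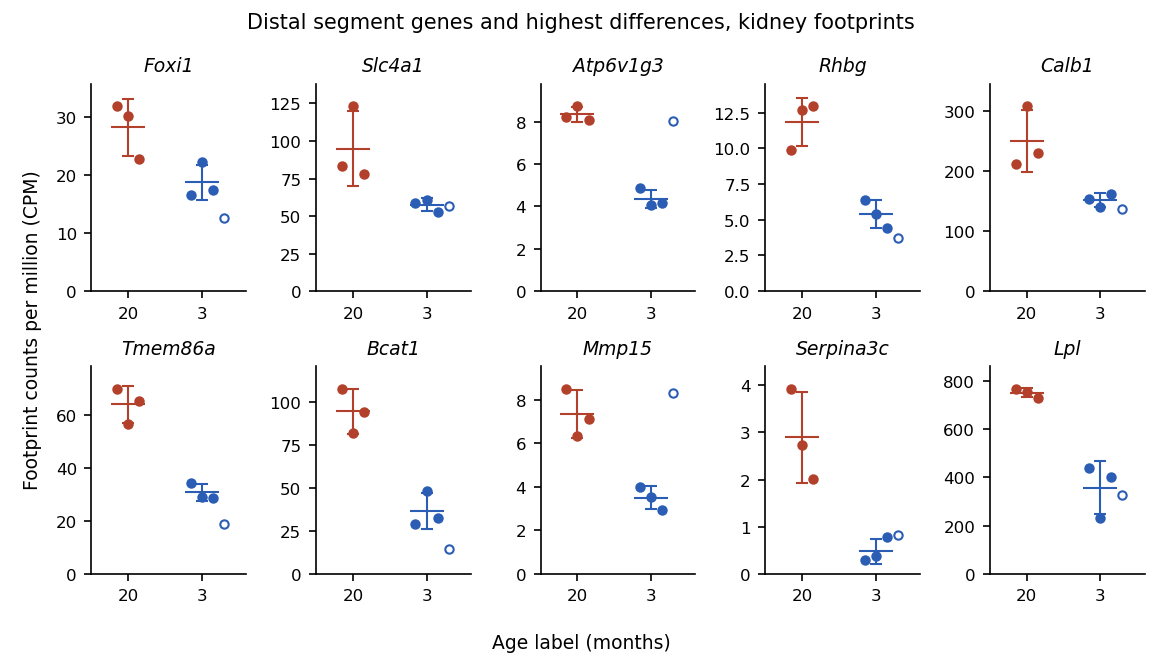
Footprint CPM (y axis, linear, from 0) of distal tubule and collecting duct genes (upper row) and of genes with large positive differences, with the lipase gene Lpl (lower row), by age label (x axis); filled points are single libraries, bars the mean and SD of 3 libraries, and the open point library 2 labelled 3 months. Tmem86a lay at 56.3 to 69.8 CPM at 20 months and at 28.6 to 34.3 CPM at 3 months, while library 2 lay at 8.03 CPM for Atp6v1g3 and at 8.31 CPM for Mmp15, near the 20-month points.

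Fat cell genes stood beside these. All 12 fat cell markers tested had positive differences with a median of 1.68 (1.15 with library 2 added). EdgeR called 0 of them and DESeq2 called Lpl higher. Their summed level was 1878, 1489 and 1325 CPM at 20 months, against 506, 305 and 1058 CPM in libraries 1, 3 and 4 at 3 months and 929 CPM in library 2. Library 4, the one with adrenal markers, was the highest of the main 3-month libraries. Without it the median was 4.05 and 7 of the 12 were called higher. Lpl, the lipase that takes up circulating fat, was at 768, 755 and 729 CPM at 20 months, against 439, 231 and 403 CPM at 3 months, and missed the threshold (log2 difference 1.05 ± 0.27, edgeR adjusted p 0.0896). Cfd, the fat cell protein adipsin, was at 390, 190 and 123 CPM at 20 months, against 4.10, 14.1 and 167 CPM at 3 months, and its ranges overlapped. None of the 12 was at 0 in all 6 libraries, and their part in the rise of the genes above was not tested.

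The remaining genes with the largest falls were of mixed function. Serpina10, an inhibitor of activated clotting factor X, was at 1.54, 0.803 and 0.578 CPM at 20 months, against 5.41, 10.4 and 4.95 CPM at 3 months (log2 difference −2.71 ± 0.55, edgeR adjusted p 0.0459). Liver is the main source of Serpina10. Of 10 hepatocyte markers tested edgeR called 0 and DESeq2 2 lower, 9 had negative differences, and the median was −1.97. Without library 1 labelled 3 months edgeR called 5 of them lower. Their summed level was 160, 111 and 170 CPM at 20 months, against 151, 301 and 308 CPM in libraries 1, 3 and 4 at 3 months, and their part in the Serpina10 difference was not tested. Prkag3, a regulatory subunit of the energy sensor AMPK, averaged 3.42 ± 0.58 CPM at 20 months and 12.7 ± 2.78 CPM at 3 months (log2 difference −1.90 ± 0.30, edgeR adjusted p 0.0176). The secretory granule protein gene Ptprn2 fell by 2.69, the acyl-CoA synthetase gene Acsbg1 by 2.28, the matrix gene Ltbp2 by 1.97, the growth factor gene Ptn by 1.85, the serotonin-gated channel gene Htr3a by 1.84 and the GTPase regulator gene Agap2 by 1.68 on the log2 scale. Across the 6 fits with a library left out, Agap2 stayed called in 5, Prkag3 in 4 and Htr3a in 2. Ptprn2, Acsbg1, Ltbp2 and Ptn stayed called in 1, and Serpina10 in 0. Highest of the 3-month libraries for Serpina10, Ptprn2, Ptn and Htr3a was library 3, which also had the highest B and plasma cell sum.

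Genes of large protein complexes did not pass the edgeR test. Of 81 cytosolic ribosomal protein genes tested edgeR called 0 and DESeq2 10 lower, where DESeq2 called 534 of all 14463 genes lower. Of the 81, 76 had negative differences, with a median of −0.21. Lower ranges that did not overlap were found in 59, against 12.5% of all tested genes. The median was −0.20 with library size as the only scaling and −0.22 with library 2 added. With library 2, however, 58 members were negative and 23 positive in edgeR, and DESeq2 called 1 lower. Of 81 oxidative phosphorylation genes and 37 proteasome genes edgeR and DESeq2 called 0, and their medians of 0.02 and 0.08 were 0.26 and 0.31 with library 2 added. Of 29 fibroblast and matrix genes, collagens included, edgeR called 0 and DESeq2 called 3 lower (Bgn, Col6a1 and Mgp), with a median of −0.05.

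**Figure D5:**
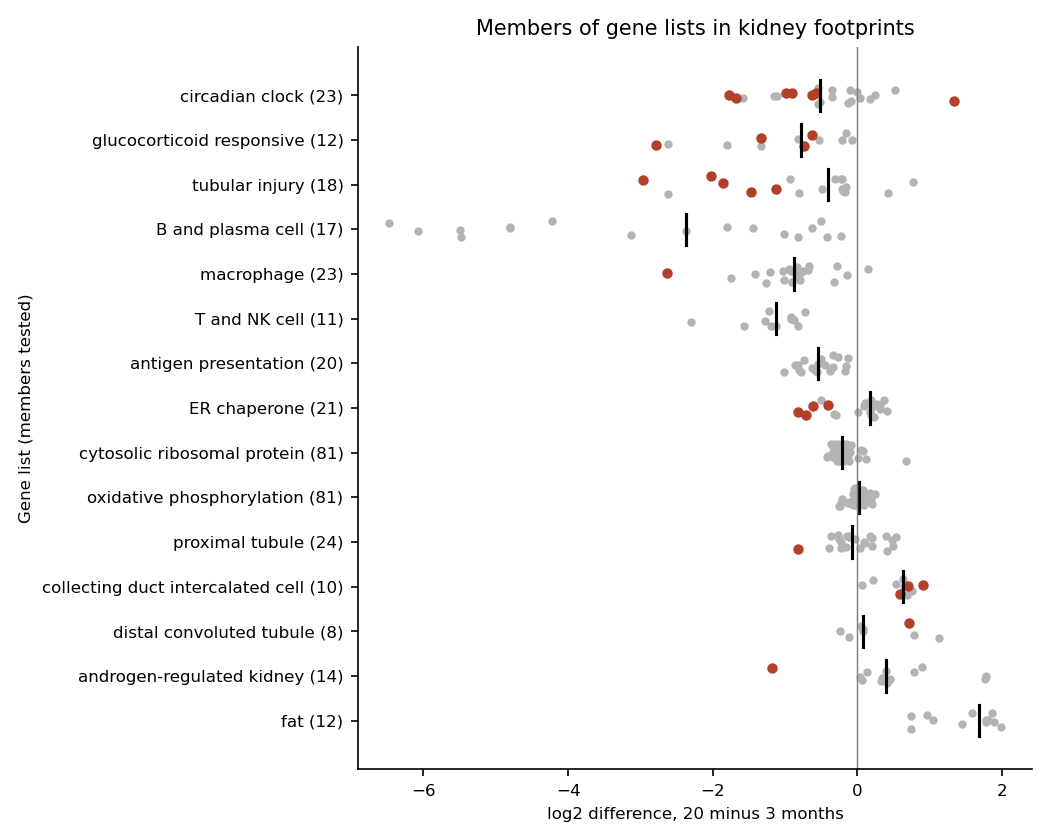
Log2 difference of each tested member (points) of 15 gene lists (rows), libraries labelled 20 minus 3 months, without library 2 labelled 3 months; red points passed the test over all genes and black lines are list medians. Clock, glucocorticoid and injury lists had medians of −0.51, −0.78 and −0.40, the B and plasma cell list −2.37 with no red point, and the intercalated cell and fat lists 0.64 and 1.68.

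The libraries labelled 32 months mostly lay between. Of the 255 called genes 248 had a 32-month mean between the means at 3 and 20 months, against 51.8% of all tested genes; choosing genes for a wide gap between those 2 ages favours this. Per2, for example, was at 81.5, 85.1 and 85.9 CPM at 3 months, at 19, 33.1 and 28.2 CPM at 20 months, and at 41.9, 61.1 and 57.0 CPM at 32 months. B3galt2 was an exception, with means of 0.994 CPM at 3, 3.46 CPM at 20 and 0.607 CPM at 32 months. Between 20 and 32 months edgeR called 0 genes (921 at an unadjusted p under 0.05, and 26 by DESeq2). Between 32 and 3 months, a comparison that shares the 3-month libraries, it called 1 gene (0.00691% of those tested), Zbtb16, with a log2 difference of −1.97 beside −2.78 for 20 against 3 months.

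Liver footprints with the same age labels gave a measure of how far these differences were shared. In liver 3559 of 15344 genes were called (23.2%; 8.84% higher, 14.4% lower). Of the 255 kidney genes 69 were called in liver (27.1% of the kidney genes, 1.94% of the liver genes), 55 in the same direction and 14 in the opposite one. The difference between the tissues, kidney minus liver, was called for 224 genes (1.46%; 161 higher, 63 lower), and 19 of the 255 were among them (7.45%). With library size as the only scaling 345 were called, 304 higher and 41 lower. With 1 kidney library left out at a time the count ran from 13 to 97, without libraries 1, 2 or 3 of liver labelled 20 months it was 10, 12 and 88, and without libraries 1 or 3 of liver labelled 3 months it was 119 and 2401. Bhlhe40 fell in kidney while its log2 difference in liver was 0.20, a gap of −1.20 (edgeR adjusted p 0.0462). Tmem86a, which rose in kidney, had a log2 difference of −1.19 in liver, a gap of 2.21 (edgeR adjusted p 0.0251). For Per2 and Zbtb16 the gap between the tissues missed the threshold: their liver differences were −0.17 and −1.42, with gaps of −1.52 and −1.38 (edgeR adjusted p 0.0795 and 0.363).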

How the data were processed

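Footprint libraries were made from kidney and liver lysates digested with RNase T1 and S7, per the labels' protocols. The deposited values are raw read counts for each gene, not normalized by the authors, in 1 joint table and 28 separate footprint tables identical to it. Per the submitters' processing notes, cutadapt 1.14, STAR 2.5.3 and build mm10 were used; the counting tool, its use of strand and the annotation are not given in the sources used here. Overlapping and near-identical genes may therefore share counts. Of 50222 gene identifiers 49998 had a symbol.

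Low genes were removed by filterByExpr at a minimum count of 10. TMM scaled the rest, and edgeR 4.0.16 tested them in R 4.3.3 (quasi-likelihood F test, robust, two-sided, Benjamini-Hochberg at 0.05). The fit held 9 kidney footprint libraries, the 3 ages as groups, without library 2 labelled 3 months. The SE was derived from the F statistic (size of the log2 difference over its root). CPM were computed on all gene counts of a library, without TMM. The tissue difference was fitted over kidney and liver libraries labelled 3, 20 and 32 months. An exact permutation test of 3 against 3 could not reach a p under 0.1, so tests rest on the model across genes. No label says that replicates came from separate animals, so p-values measure the spread between libraries; all pairs differed beyond counting noise. The fit was also run on simulated counts, drawn independently from a pooled profile. Those counts held no library that stands apart, so they do not bear on how single libraries moved the calls here.

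Named genes were the 15 highest and 15 lowest called differences with at least 2 CPM in the higher group and ranges that did not overlap, up to 4 called members of each list (2 most abundant where none was called), and members of the clock, B and plasma cell and macrophage lists. Predicted models, pseudogenes and variable segments were counted, not named, and some genes that the rule names are not reported here. Members and lists were chosen with earlier results of these data known. Promoter windows came from the RefSeq table of build GRCm38.p6. Alternatives were DESeq2 1.42.0, other scalings and filters, a replicate block, each library left out, and library 2 added.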

Additional observations from a re-analysis of the deposited data

Results flagged for a closer look

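The 4 libraries labelled 3 months allow a check for 1 far from the rest, by the gap to the nearest library as a share of the group's range; chance alone flags about 1 in 20 such groups. Library 2 was flagged for its correlation with the other kidney libraries (0.864) and its share of counts in the 10 most abundant genes (0.896). Mean log2 levels of 10 of 41 lists were flagged: macrophage (0.877), proximal tubule (0.883), glucocorticoid responsive (0.916), antigen presentation (0.848), glutathione (0.843), lysosome (0.973), oxidative phosphorylation (0.93), cytosolic ribosomal protein (0.868), mitochondrial ribosomal protein (0.903) and proteasome (0.968). The far library of each list is not given here and was not always library 2. Macrophage sums, for example, were 433.5, 449.8, 627.2 and 384.1 CPM in libraries 1 to 4. Of 72 named genes 7 were flagged, with library 2 the far one for Zbtb16 (0.845), Per2 (0.896), Rapgefl1 (0.876), Cd44 (0.833), Manf (0.832) and Ddit3 (0.883), and library 4 for Sox9 (0.891).

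The difference for 20 against 3 months itself differed between kidney and liver for 5 of the named genes, by edgeR's interaction test. Kidney minus liver was 4.24 on the log2 scale for Serpina3c, 4.33 for Lpl, 2.21 for Tmem86a, 2.14 for Chrdl1 and −1.20 for Bhlhe40.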

How the results depend on the processing

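Counts of genes called for 20 against 3 months (255) were 149 with library size only, 822 with no filter, 802 with DESeq2, 646 with only the 2 groups fitted, 0 with library 2 labelled 3 months added, and 5 to 238 with 1 library left out. DESeq2 with library 2, an alternative chosen after seeing the data, called 385 (99 higher, 286 lower). RLE scaling gave 253, TMM without the 10 most abundant genes 262 and a minimum count of 50 gave 196. For 20 against 32 months (0) the counts were 26 with no filter, 26 with DESeq2, 2 with DESeq2 and library 2, and 0 to 40 leaving out a library (40 without library 1 labelled 32 months). For 32 against 3 months (1) they were 27, 22, 2 and 1 to 2, and 0 with library 2 and edgeR. The tissue difference (224) gave 60 with kidney library 2, 345 with library size only, 1131 with DESeq2 and 10 to 2401 leaving out a library. The cause of these shifts was not tested. Leaving out a library leaves fewer samples, and counts fell in some of those fits and rose in others.

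Replicate numbers did not pair the libraries in every comparison: same-numbered libraries had correlations of deviations of −0.21 and −0.12 between 20 and 3 months, 0.273 and 0.274 between 32 and 3 months, and −0.0792, 0.137 and −0.0414 between 20 and 32 months. With the replicate block 391 genes were called for 20 against 3 months (161 of them among the 255), 18 for 20 against 32 months, 7 for 32 against 3 months and 42 for the tissue difference.

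None of the called genes named changed direction under these settings. Arntl, not called, was at −0.521 with library 2, −0.53 with library 2 and DESeq2, and −0.0917 to 0.579 with 1 library left out. Dbp, not called, was at 0.0777 and 0.0765 in the same fits with library 2, and −0.235 to 0.0958 with 1 library left out (0.0631 without library 1 labelled 20 months). Of 39 list medians, 12 moved beyond the replicate spread with library 2 added. The few libraries per age and their spread limit what could be called; most low genes rest on few counts.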
